A study of Mus musculus with 4 samples.

Results

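Mt1 and Mt2 encode the metallothioneins of mouse liver. They are 2 of the 8251 genes that an Affymetrix MG_U74Av2 array names, and they were read by 2 of its 12422 probe sets that are not controls, namely those with Mt1 or Mt2 as their only annotated symbol, 1 probe set for each gene. Both genes were chosen by their signals on these same 4 arrays, which were higher in transgenic liver, so that difference is given below as a description, with no test. The series holds 2 arrays of PEPCK-TAg liver and 2 arrays of wild-type (WT) liver. PEPCK-TAg mice carry the large T and small t antigens of the virus SV40 under the promoter of Pck1, the gene of phosphoenolpyruvate carboxykinase, which is active in hepatocytes and also in kidney and fat, and WT mice lack the transgene. The comparison asks how the liver's transcripts differ after long exposure to small amounts of these viral proteins. All animals were male B6SJL hybrids aged 58 to 60 days that were weaned onto feed with 10% protein and 70% carbohydrate and kept on it for 4 weeks. The labels call the arrays duplicate measurements without saying whether each array had an animal of its own. Errors and p-values below therefore cover the spread between arrays alone, and that spread may be technical.

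Metallothioneins are small, cysteine-rich proteins that bind zinc and copper, and also cadmium, in the cytoplasm and nucleus. The zinc-sensing transcription factor MTF-1 binds metal response elements in the promoters of Mt1 and Mt2 and raises their transcription when free zinc is high, and glucocorticoids, interleukin-6 and oxidative stress are further known inducers in liver. Both genes are also known for high expression in fetal and regenerating liver. The same gene cluster holds Mt3, known mainly from brain, and Mt4, known from stratified epithelia.

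The promoter windows of 3 of the 4 genes of the cluster are shown because metal response elements are the known sites of MTF-1 at Mt1 and Mt2. Mt3 is shown beside them as a family member whose signal differed little between the groups. The windows run from 250 bases before to 50 bases after the start used in RefSeq's promoter table. RefSeq's gene table begins Mt1 further upstream, and the start most used in liver may differ from either, so the windows of Mt1 and Mt2 may miss part of the proximal promoter and may include transcribed bases. The capitals mark every match of the letters TGCACNC or TGCGCNC on either strand, the core of the metal response element.
Mt1 (GRCm38.p6, chr8:94178839-94179138, + strand): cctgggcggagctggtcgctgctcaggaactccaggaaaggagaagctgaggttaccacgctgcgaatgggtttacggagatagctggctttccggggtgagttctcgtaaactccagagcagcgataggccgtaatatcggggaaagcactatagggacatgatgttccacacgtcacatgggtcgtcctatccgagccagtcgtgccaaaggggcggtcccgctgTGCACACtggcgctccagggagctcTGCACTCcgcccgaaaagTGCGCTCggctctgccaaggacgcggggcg
Mt2 (GRCm38.p6, chr8:94172368-94172667, + strand): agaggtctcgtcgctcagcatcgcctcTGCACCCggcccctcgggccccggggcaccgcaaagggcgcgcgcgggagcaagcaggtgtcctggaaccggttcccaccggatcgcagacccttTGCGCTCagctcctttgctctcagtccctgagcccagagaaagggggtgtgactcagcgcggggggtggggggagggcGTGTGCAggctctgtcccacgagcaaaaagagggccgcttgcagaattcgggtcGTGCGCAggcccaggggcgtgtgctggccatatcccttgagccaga
Mt3 (GRCm38.p6, chr8:94152357-94152656, + strand): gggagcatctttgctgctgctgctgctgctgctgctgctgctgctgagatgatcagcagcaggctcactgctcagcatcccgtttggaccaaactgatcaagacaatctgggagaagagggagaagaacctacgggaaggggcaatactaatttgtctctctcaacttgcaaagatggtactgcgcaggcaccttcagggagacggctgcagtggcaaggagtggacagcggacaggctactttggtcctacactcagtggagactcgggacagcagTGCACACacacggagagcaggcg

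The Mt1 window held 3 matches of the metal response element, at bases -23 to -17, 3 to 9 and 21 to 27 counted from that annotated start. The Mt2 window held 4, at -223 to -217, -128 to -122, -50 to -44 and 5 to 11, the last pair on the minus strand. The Mt3 window held 1, at 28 to 34, and the Mt4 window (chr8:94136954-94137253, + strand) held 1, at -91 to -85. Among all 32851 RefSeq promoter windows of the same length, 25.7% held at least 1 match, 1.31% held at least 3 and 0.295% held at least 4. The match counts of Mt1 and Mt2 are thus uncommon among mouse promoters, whereas those of Mt3 and Mt4 are not.

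Other motifs were searched on both strands of the same windows. The Mt2 window held the letters TGACNNNGC, the core of the antioxidant response element, at -79 to -71, found in 12.4% of all windows. That match overlapped one of the AP-1 letters TGACTCA at -79 to -73, found in 5.20% of windows. The Mt1 window held the hypoxia core ACGTG at -79 to -75, present in 19.6% of windows, and 3 matches of the GC box GGGCGG, a number reached in 9.85% of windows, one of which shares a base with the second metal response element. The glucocorticoid response half-site TGTTCT (19.0% of windows), the STAT letters TTCNNNGAA (8.30%) and the E-box CACGTG (7.15%) had 0 matches in the windows of the 4 genes, and TATAAA (13.6%) had 1, in Mt4. A match describes letters only. Positions and absent matches hold for the annotated starts, and sequence beyond these windows was not searched.

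Each array gave 1 MAS5 signal, a linear brightness, for each probe set. After trimming 2% of probe sets at each end, the mean signal was 250.2 on every array, and the median signal was 84.8 and 89.1 on PEPCK-TAg replicates 1 and 2 and 79.2 and 75.8 on WT replicates 1 and 2. Log2 signals correlated across probe sets with r = 0.977 between the PEPCK-TAg arrays and r = 0.975 between the WT arrays, against 0.943 to 0.954 between groups. The albumin gene Alb, which defines hepatocytes, was the brightest probe set on all 4 arrays. For fits, signals were taken as log2(signal + 13), and the 7453 probe sets whose mean lay in the upper part of all probe sets (at or above the 40th percentile) were compared with limma. Benjamini-Hochberg adjusted p-values under 0.05 called 477 probe sets higher in PEPCK-TAg (6.40%) and 229 lower (3.07%). Centring each array on its median moved the median change of all kept probe sets to -0.14, against 0.01 as deposited, and turned the calls into 403 higher and 409 lower. Leaving out any 1 array gave 294 to 401 higher and 94 to 147 lower, the fewest of both without WT replicate 1.

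Mt1 had signals of 355.5 and 199.2 on the PEPCK-TAg arrays, against 19.5 and 8.2 on the WT arrays. Both transgenic arrays were well above both WT arrays, and the lowest PEPCK-TAg signal was 10.2 times the highest WT signal. The mean signal of Mt1 was 277 ± 111 in PEPCK-TAg and 13.9 ± 7.99 in WT (SD, n = 2 each), a ratio of 20.0. On the log2(signal + 13) scale, where the offset shrinks the change of dim probe sets, the difference was 3.41 ± 0.36 (SE). Mt1 passed the filter on dim probe sets only through the PEPCK-TAg arrays, since its WT mean lay under the lowest kept mean of 48.1. The size of its ratio therefore rests on WT signals near the bottom of the scale.

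Mt2 was the brighter probe set of the pair, with signals of 2769.6 and 1494.3 on the PEPCK-TAg arrays and 265.2 and 211.8 on the WT arrays. Here too the groups did not overlap, and the lowest PEPCK-TAg signal was 5.63 times the highest WT signal. The mean signal of Mt2 was 2132 ± 902 in PEPCK-TAg and 238.5 ± 37.8 in WT (SD, n = 2 each), a ratio of 8.94. The log2 difference was 3.03 ± 0.30 (SE). Both PEPCK-TAg arrays lay above both WT arrays for 30.2% of all kept probe sets. In bulk liver RNA, a signal from more cells of a type and a signal from more RNA in each cell cannot be told apart.

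**Figure D1:**
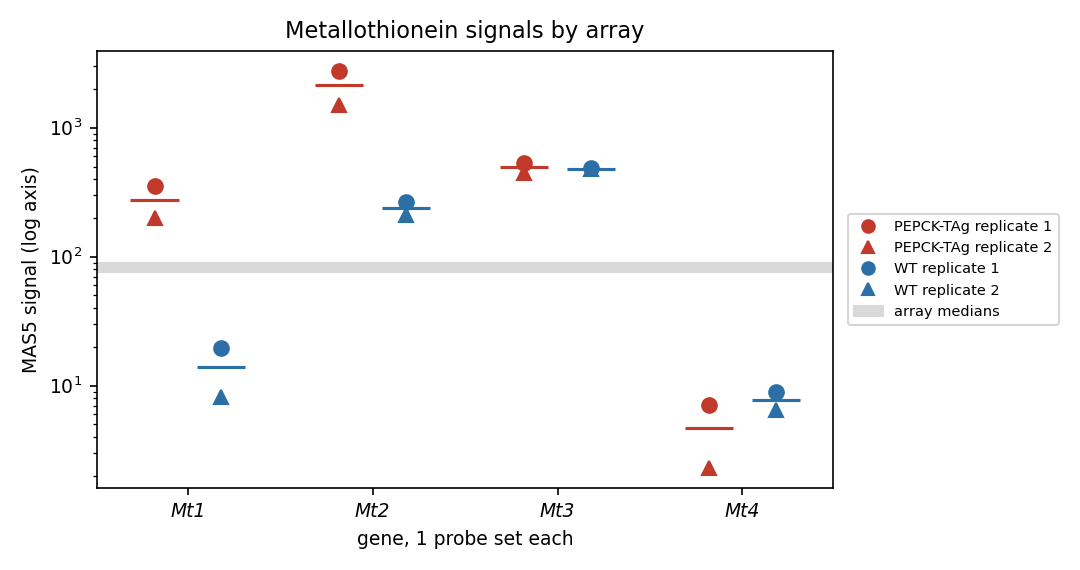
MAS5 signal (log axis) of the probe sets of Mt1, Mt2, Mt3 and Mt4 on each of the 4 arrays, with PEPCK-TAg in red left of WT in blue, circles for replicate 1, triangles for replicate 2, horizontal bars for group means and a grey band over the array medians. Mt1 and Mt2 lie higher on both PEPCK-TAg arrays, Mt3 lies between 448.1 and 536.0 on all 4 arrays, and Mt4 stays at 9.0 or less.

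The arrays of each group were not equal. PEPCK-TAg replicate 1 was brighter than replicate 2 by a factor of 1.78 for Mt1 and 1.85 for Mt2. On the log2 scale these gaps were 0.80 and 0.88, and only 5.14% and 3.88% of kept probe sets had a gap as wide between the PEPCK-TAg arrays. WT replicate 1 was brighter than WT replicate 2 by a factor of 2.38 for Mt1 and 1.25 for Mt2, gaps that 11.2% and 38.0% of kept probe sets reached or passed. Both metallothioneins thus varied between the transgenic arrays more than most probe sets did, in the same direction. Leaving out each array in turn gave log2 differences from 3.02 to 3.81 for Mt1 and from 2.59 to 3.48 for Mt2, positive throughout.

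Among all 12422 probe sets, Mt1 was brighter than 79.0% and 67.1% on the PEPCK-TAg arrays and than 25.0% and 15.1% on the WT arrays. Mt2 was brighter than 97.7% and 95.3% on the PEPCK-TAg arrays and than 74.8% and 70.5% on the WT arrays. In PEPCK-TAg liver Mt2 thus stood at rank 283 and 582 from the brightest probe set, against 3131 and 3666 in WT liver. Relative to the median of its array, Mt2 was 32.7 and 16.8 times as bright in PEPCK-TAg and 3.35 and 2.80 times in WT, while Mt1 was 4.19 and 2.24 times in PEPCK-TAg and 0.25 and 0.11 times in WT. Brightness depends on the affinity of each probe set as well as on the amount of RNA, so these places describe the array and do not measure one gene's RNA against another's. The same holds for the ratio of the Mt2 to the Mt1 signal, which was 7.79 and 7.50 on the PEPCK-TAg arrays and 13.6 and 25.8 on the WT arrays.

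By the size of the log2 difference, Mt1 was 20th and Mt2 34th of the 7453 kept probe sets, or 15th and 26th of 5650 genes. The genes beside Mt1 in that order were Top2a, a DNA topoisomerase gene of dividing cells (3.65), and Anln, which encodes the cytokinesis protein anillin (3.41). Those beside Mt2 were Kif22, a mitotic kinesin gene (3.07), and Dtl, which encodes a substrate receptor of a ubiquitin ligase active in DNA replication (3.01). The gaps to these neighbours were smaller than the standard errors of Mt1 and Mt2. Top2a, Anln and Dtl, like Mt1, passed the filter only through the PEPCK-TAg arrays (WT means 5.75, 19.1 and 13.55). A further comparison, added after the values were seen, took the probe sets whose WT mean was within a factor of 2 of each gene's. It covered all those with 1 gene symbol, kept in the fit or not, other than Mt1 and Mt2. Of 2066 probe sets near the WT level of Mt1, 12 (0.581%) had a difference at least as large, and of 2893 near that of Mt2, 3 (0.104%) did. The median difference in both sets was 0.02. The offset decides which of the pair differed more, because with an offset of 50 the log2 difference was 2.32 for Mt1 and 2.86 for Mt2, and with an offset of 1 it was 4.28 and 3.10.

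**Figure D2:**
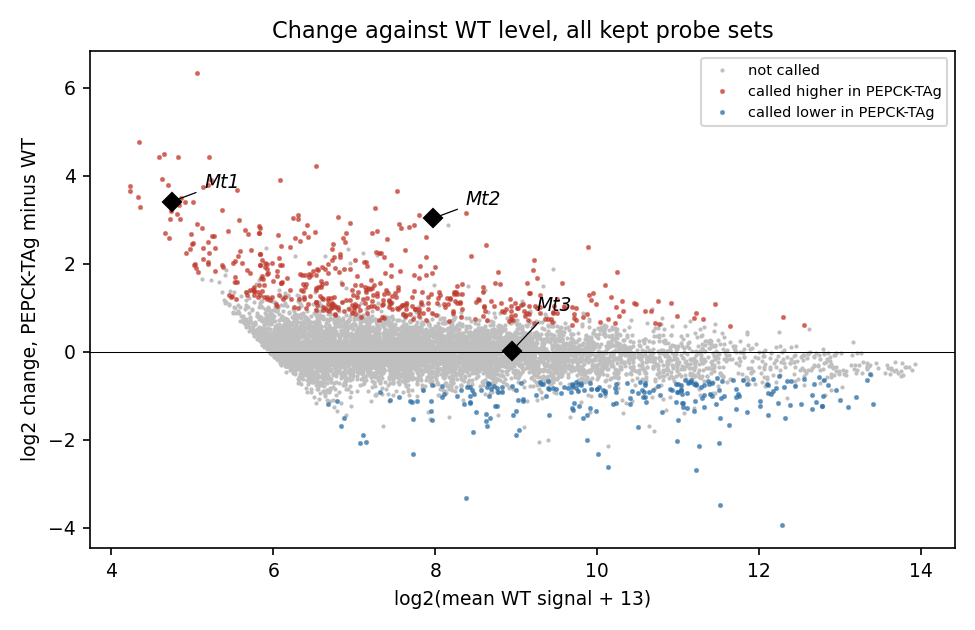
Log2 difference of PEPCK-TAg minus WT (vertical axis) against log2(mean WT signal + 13) (horizontal axis) for the 7453 kept probe sets, coloured by the limma call, with Mt1, Mt2 and Mt3 as black diamonds. Mt1 lies among the dimmest WT levels at a difference of 3.41, Mt2 lies at a mid-range WT level near the upper edge of the cloud at 3.03, and Mt3 lies on the zero line at 0.03; the empty lower left corner is made by the filter on dim probe sets.

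The other metallothionein genes of the cluster did not share this pattern in size. Mt3 had signals of 536.0 and 448.1 on the PEPCK-TAg arrays and 483.3 and 479.0 on the WT arrays, so the groups overlapped. Its log2 difference was 0.03 ± 0.17 (SE, limma with Benjamini-Hochberg adjustment, adjusted p = 0.939), with a sign that turned under quantile normalization, under median centring and without PEPCK-TAg replicate 1 (-0.05, -0.12 and -0.10). Mt4 had signals of 7.1 and 2.3 on the PEPCK-TAg arrays and 9.0 and 6.5 on the WT arrays, too dim to be kept in the fit. Metallothionein transcripts are close in sequence. Whether a probe set of one picked up RNA of another was not tested, because probe sequences were not used here.

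Genes that move, store or sense zinc and copper were read from a list of 42 genes; the array held 27, and 22 passed the filter. None rose or fell at an adjusted p under 0.05 in limma, where 6.83% of all 5650 genes rose and 3.01% fell, while an unadjusted p under 0.05 was reached by 1 higher and 3 lower members. Their median log2 difference was -0.02, beside 0.01 for all genes, and they ranged from -0.47 to 0.62, so every one was smaller in size than the differences of Mt1 and Mt2. Slc30a1, the zinc exporter of the cell surface and another known target of MTF-1, had signals of 122.0 and 98.3 in PEPCK-TAg and 78.5 and 84.9 in WT. Its groups did not overlap, and its log2 difference was 0.37 ± 0.22 (SE, limma adjusted p = 0.339). Mtf1, the gene of MTF-1, gave 50.1 and 39.8 in PEPCK-TAg and 23.8 and 67.2 in WT, with overlapping groups, and was too dim to be kept.

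The remaining members of smallest p leaned lower without passing. Sod1, the copper- and zinc-binding superoxide dismutase, had signals of 6208.6 and 5465.6 in PEPCK-TAg and 8240.5 and 7880.4 in WT, with a log2 difference of -0.47 ± 0.13 (SE, limma adjusted p = 0.0749). The copper importer Slc31a1 was at -0.42 ± 0.16 (limma adjusted p = 0.153) and the zinc transporter Slc39a9 at -0.45 ± 0.17 (limma adjusted p = 0.159). The zinc importers Slc39a10 and Slc39a14 were not read by a probe set that was named here.

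**Figure D3:**
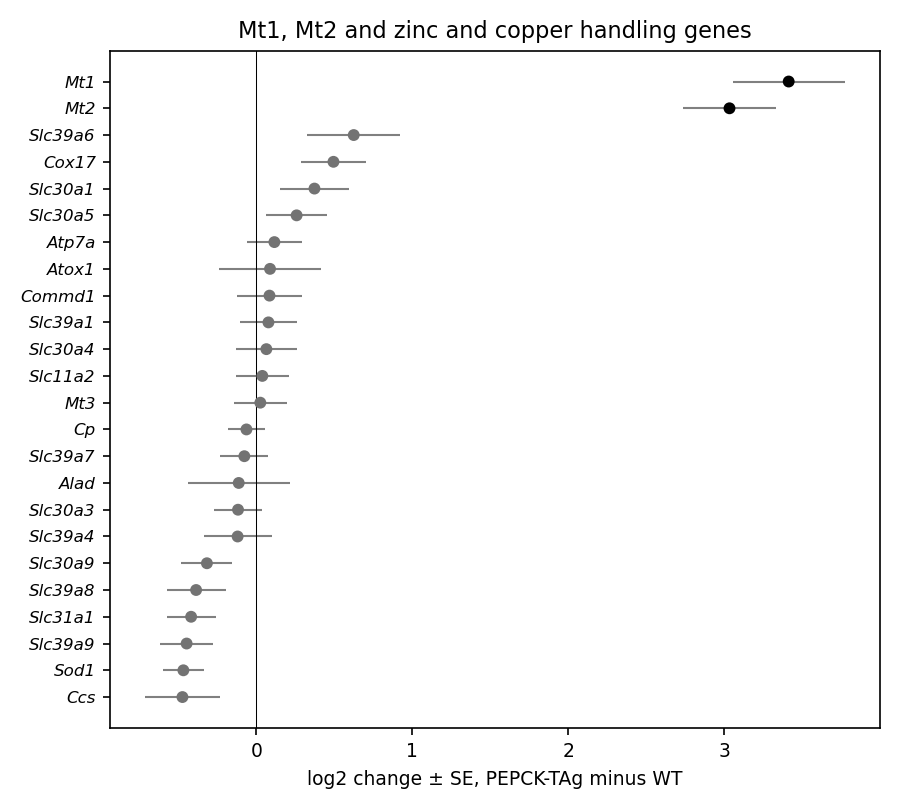
Log2 difference of PEPCK-TAg minus WT with its standard error (horizontal axis, bars ± SE from the fit) for Mt1 and Mt2 in black and the 22 kept genes of zinc and copper handling in grey, in order of size. Mt1 and Mt2 lie at 3.41 and 3.03, and the other genes lie between -0.47 and 0.62.

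Genes induced by glucocorticoids, one known inducer of metallothioneins, were read from a list with 27 genes on the array and 25 kept, of which 0 rose and 2 (8%) fell (median log2 difference 0.21), beside 6.83% of all genes that rose and 3.01% that fell. Hsd11b1, whose enzyme regenerates active glucocorticoid in liver, had signals of 1966.9 and 2349.8 in PEPCK-TAg and 5057.3 and 4570.9 in WT, a log2 difference of -1.16 ± 0.15 (SE, limma adjusted p = 0.00784). Lpin1, a phosphatidate phosphatase gene, fell to 221.0 and 211.6 in PEPCK-TAg, against 381.7 and 390.4 in WT (-0.80 ± 0.16, limma adjusted p = 0.0286), a call lost without any 1 of the arrays (limma adjusted p 0.0753 to 0.110). Of the members that did not pass, Gadd45b, a stress response gene, was at 1.36 ± 0.35 (limma adjusted p = 0.0596), Anxa1, the gene of annexin A1, at 0.77 ± 0.21 (0.0710) and Tdo2, the tryptophan dioxygenase gene of hepatocytes, at -0.50 ± 0.12 (0.0549). Gadd45b passed the filter only through the PEPCK-TAg arrays, since its WT mean of 28.25 lay under the lowest kept mean of 48.1. Pck1, whose promoter drives the transgene, had signals of 1605.4 and 565.5 in PEPCK-TAg and 2371.9 and 2307.9 in WT. Its log2 difference of -1.28 ± 0.43 did not pass (limma adjusted p = 0.121), but it was -2.02 (0.000979) when PEPCK-TAg replicate 1 was left out, against -0.54 when replicate 2 was. The 2 transgenic arrays thus stood in the same order for Pck1 as for Mt1 and Mt2, with replicate 1 the brighter, an order that 49.8% of all genes had.

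Genes of the interleukin-6 and acute phase response were read from a list with 36 genes on the array and 33 kept, of which 4 (12.1%) rose and 0 fell, beside 6.83% and 3.01% of all genes (median log2 difference -0.03). Lcn2, the gene of the iron-siderophore carrier lipocalin 2, had signals of 688.3 and 879.9 in PEPCK-TAg and 29.0 and 19.1 in WT, a log2 difference of 4.43 ± 0.22 (SE, limma adjusted p = 0.000643), larger than those of Mt1 and Mt2. Lcn2, counted among the 4, passed the filter on dim probe sets only through the PEPCK-TAg arrays. Its WT mean of 24.05 lay under the lowest kept mean of 48.1, so the filter fixed the sign of its difference. A second, unselected probe set of Lcn2 differed by 0.05. Saa3, an acute phase apolipoprotein gene, rose by 1.73 ± 0.17 (limma adjusted p = 0.00294) and Cd14, the endotoxin co-receptor gene of macrophages, by 1.55 ± 0.23 (0.0109). Il1rn, the gene of the interleukin-1 receptor antagonist, rose by 1.83 ± 0.32 (0.0199), a call lost without PEPCK-TAg replicate 2 (0.0526), WT replicate 1 (0.0509) or WT replicate 2 (0.0614). Without WT replicate 2 the list had 7 members that rose. The members of smallest p that did not pass went both ways. Il1b, the gene of interleukin-1 beta, was at 1.63 ± 0.40 (limma adjusted p = 0.0530), Lrg1, the gene of a secreted leucine-rich glycoprotein, at -0.98 ± 0.25 (0.0608) and Fga, a fibrinogen chain gene, at -0.72 ± 0.19 (0.0681). Of the acute phase proteins that hepatocytes secrete, the orosomucoid gene Orm2 was at 1.09 ± 0.29 (limma adjusted p = 0.0688), the serum amyloid gene Saa2 at 0.87 ± 0.30 (0.125) and the haptoglobin gene Hp at -0.03 ± 0.15. Their relatives Orm1 and Saa4 went the other way, at -0.40 (limma adjusted p = 0.412) and -0.57 (0.505). Further secreted members were mostly lower, none past the threshold. Fgg was at -0.53, Hamp at -0.47, Fgb at -0.43, Serpina3n at -0.27 and Itih4 at -0.25. Crp was at -0.12, Hpx at -0.08, Itih3 at -0.07 and Cp at -0.06, while Apcs (0.25) and Lbp (0.04) were higher. Il1b and Orm2, like Lcn2, passed the filter only through the PEPCK-TAg arrays (WT means 24.6 and 30.9). The suffix of the Saa2 probe set marks a sequence family, and a second probe set of Saa2 differed by -0.33.

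Genes regulated by NRF2, the factor of the oxidative stress response, were read from a list with 41 genes on the array and 36 kept, of which 2 (5.56%) rose and 3 (8.33%) fell, where all genes gave 6.83% and 3.01% (median log2 difference 0.05). With each gene read by its probe set of highest mean, the share that rose was no higher than that of all genes. That reading depends on which probe set stands for Srxn1. Gsta2, a glutathione transferase gene, had signals of 909.7 and 2348.8 in PEPCK-TAg and 208.2 and 463.1 in WT, a log2 difference of 2.19 ± 0.50 (SE, limma adjusted p = 0.0438), with replicate 2 the brighter array in each group. Of the 36 kept members, 9 were brighter on PEPCK-TAg replicate 1 than on 2, and 8 on WT replicate 1 than on 2. All genes gave 49.8% and 52.2%. Whether NRF2 had a part in the Mt1 and Mt2 difference was not tested. Gstm3, another glutathione transferase gene, rose by 1.09 ± 0.23 (0.0348). The malic enzyme gene Me1 was at -0.94 ± 0.15 (limma adjusted p = 0.0138), the glutathione transferase gene Gsta3 at -0.85 ± 0.18 (0.0321) and the sulfiredoxin gene Srxn1 at -0.72 ± 0.17 (0.0478), all past the threshold. The suffix of the Gstm3 probe set marks a sequence family, so its signal can hold related transcripts. That of Srxn1 marks a set with fewer probes than the design asks for. The other probe set of Srxn1 went the opposite way and was called higher, by 1.89 (limma adjusted p = 0.0350). Each of these calls was lost when certain arrays were left out. Gsta2 and Gstm3 did not pass without PEPCK-TAg replicate 2 (limma adjusted p = 0.0503 and 0.0907) or WT replicate 1 (0.149 and 0.0997), and Me1 did not pass without PEPCK-TAg replicate 1 (0.0503) or WT replicate 1 (0.0537). Gsta3 did not pass without PEPCK-TAg replicate 1 (limma adjusted p = 0.125), WT replicate 1 (0.0960) or WT replicate 2 (0.0859), and Srxn1 failed to pass without any 1 of the arrays (0.0556 to 0.158). The list had 0 members that rose without PEPCK-TAg replicate 2 or without WT replicate 1, and 0 that fell without PEPCK-TAg replicate 1 or without WT replicate 1. Of the members that did not pass, the catalase gene Cat was at -0.53 ± 0.13 (limma adjusted p = 0.0521), Nfe2l2, the gene of NRF2 itself, at 0.87 ± 0.23 (0.0628) and Mafg, a partner of NRF2, at 0.59 ± 0.18 (0.0909). Nqo1, a textbook target, had signals of 47.0 and 185.9 in PEPCK-TAg and 19.8 and 24.0 in WT, a log2 difference of 1.65 ± 0.55 that did not pass (limma adjusted p = 0.120). That probe set passed the filter only through the PEPCK-TAg arrays, since its WT mean of 21.9 lay under the lowest kept mean of 48.1. A second probe set of Nqo1, too dim to be kept, differed by 2.28.

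Genes induced by hypoxia were read from a list with 25 genes on the array and 21 kept, of which 0 rose and 1 (4.76%) fell, beside 6.83% and 3.01% of all genes (median log2 difference -0.14). A single call in 21 genes is near the share of all genes. Vegfa, the gene of a vascular growth factor, had signals of 86.8 and 76.0 in PEPCK-TAg and 176.4 and 210.7 in WT, a log2 difference of -1.13 ± 0.20 (SE, limma adjusted p = 0.0200) that was not called without PEPCK-TAg replicate 2 (0.0640) or WT replicate 2 (0.0693). Hif1a, which encodes the oxygen-regulated subunit of the hypoxia factor, was at 0.50 ± 0.14 (limma adjusted p = 0.0820), while the lactate dehydrogenase gene Ldha was at -0.43 ± 0.14 (0.104) and the pyruvate dehydrogenase kinase gene Pdk1 at -0.55 ± 0.19 (0.121).

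The genes around the metallothionein cluster on chromosome 8 were read next, 10 on each side in the order of the RefSeq table. Of these 20 neighbours, 8 were on the array and 7 were kept, of which 1 rose and 0 fell (median 0.32), where 6.83% and 3.01% of all genes did. With 7 genes, 1 call says little about the neighbourhood. Nup93, a nuclear pore gene and the first neighbour on the Mt1 side, had signals of 130.5 and 106.8 in PEPCK-TAg and 48.8 and 17.5 in WT, a log2 difference of 1.59 ± 0.38 (SE, limma adjusted p = 0.0486). That call was lost without PEPCK-TAg replicate 1 (0.138), PEPCK-TAg replicate 2 (0.0817) or WT replicate 2 (0.0745), with an offset of 1 (0.0614), with no filter (0.105), under each other normalization (0.0514 to 0.0637) and in eBayes without trend (0.0570). Nup93 passed the filter only through the PEPCK-TAg arrays. Its WT mean of 33.15 lay under the lowest kept mean of 48.1, so the filter fixed the sign of its difference. Nudt21, an mRNA cleavage factor gene and the nearest neighbour measured on the Mt4 side, was at 0.63 ± 0.19 (limma adjusted p = 0.0922).

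Genes whose promoter windows hold at least 3 matches of the metal response element, as those of Mt1 and Mt2 do, numbered 149 on the array besides these 2. Of the 109 kept, 9 (8.26%) rose and 3 (2.75%) fell, beside 6.83% and 3.01% of all genes, and the median log2 difference was 0.04. The share that rose was thus near that of all genes. The largest rise was that of Cdt1, a DNA replication licensing gene, with signals of 600.9 and 539.8 in PEPCK-TAg and 121.1 and 135.9 in WT (2.04 ± 0.17, limma adjusted p = 0.00180). The genes that fell were Ghr, the growth hormone receptor gene (-0.96), Lifr, the leukaemia inhibitory factor receptor gene (-1.17), and Lmf1, a lipase maturation gene (-0.72). The other genes that rose were Csrp1, H2-DMa, Cdca7l, Tfdp1, Fmr1, Ugcg, Dnmt1 and Bcl2l11, by 1.03 to 1.98. Of these, Cdca7l passed the filter only through the PEPCK-TAg arrays, with a WT mean of 44.05 under the lowest kept mean of 48.1. Without PEPCK-TAg replicate 2 or without WT replicate 1, only 1 member fell.

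The genes whose 4 values most resembled the mean of Mt1 and Mt2 were ranked by Euclidean distance between log2 values centred on each gene's own mean, over 4 arrays and 5648 genes. Distances of the closest 10 ran from 0.27 to 0.53, where the median gene lay at 3.30 and Mt1 and Mt2 lay 0.44 from each other. They were, in order, Anln, Racgap1, Rrm2, Fos, Gpc3, Birc5, Prim1, Mpeg1, Top2a and Ect2. Anln had signals of 396.2 and 262.6 in PEPCK-TAg and 24.8 and 13.4 in WT, at a distance of 0.27. Rrm2, the gene of a subunit of ribonucleotide reductase, had 791.5 and 493.1 in PEPCK-TAg and 68.3 and 64.0 in WT. Fos, an immediate early gene that encodes part of the AP-1 factor, had 569.9 and 228.2 in PEPCK-TAg and 44.1 and 25.4 in WT. In Anln, Rrm2 and Fos, as in Mt1 and Mt2, PEPCK-TAg replicate 1 was the brightest array and WT replicate 2 the dimmest. Genes picked by likeness tend to share this order, so it adds nothing to the ranking. In Ect2, WT replicate 1 (59.2) was dimmer than WT replicate 2 (72.6). Anln, Racgap1, Fos, Birc5, Prim1 and Top2a passed the filter only through the PEPCK-TAg arrays. Their WT means of 5.75 to 34.75 lay under the lowest kept mean of 48.1. Racgap1 and Ect2 are cytokinesis genes, Birc5 is a mitotic gene, Prim1 encodes a DNA primase subunit, Gpc3 encodes a glypican of fetal liver and Mpeg1 a pore-forming protein of macrophages. Since 4 arrays in 2 groups leave little room for a profile to vary, the ranking describes likeness on these arrays only.

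**Figure D4:**
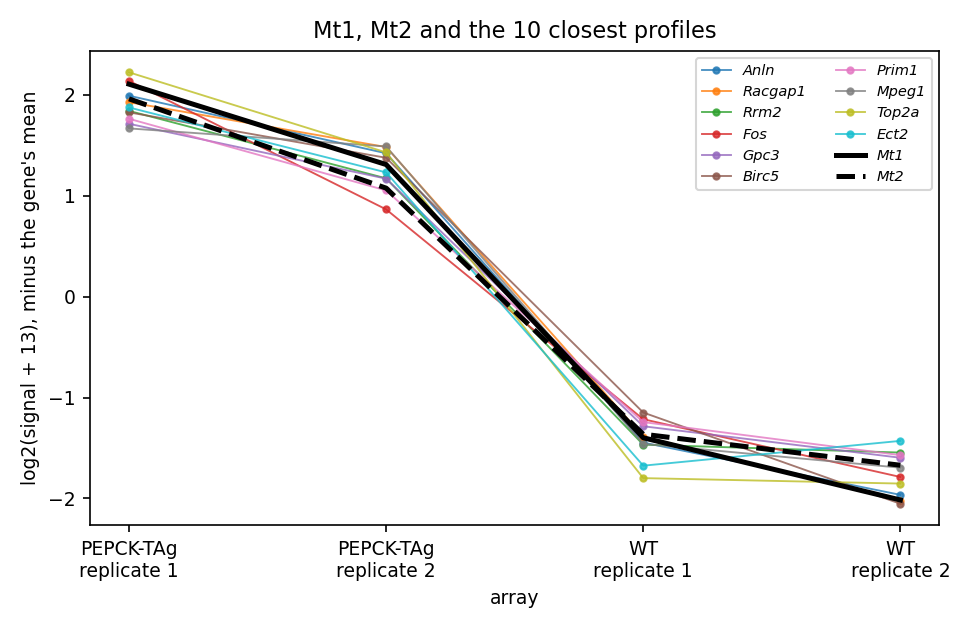
Log2(signal + 13) minus the gene's own mean (vertical axis) on the 4 arrays, PEPCK-TAg left of WT, for Mt1 (solid black), Mt2 (dashed black) and the 10 genes of closest profile (colours). The lines of Mt1 and Mt2 run within the band of the other 10 on every array or at its edge, with PEPCK-TAg replicate 1 the highest and WT replicate 2 the lowest point of both.

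Markers of the cells a liver sample can hold moved as follows on the same arrays, and their part in the Mt1 and Mt2 difference was not tested. Of 23 cell division markers on the array 19 were kept, and all 19 rose (median 2.75), beside 6.83% of all genes, with a summed signal of 13058 to 17094 in PEPCK-TAg and 1985 to 2045 in WT. Some of them passed the filter only through the PEPCK-TAg arrays, among them Top2a, Mki67 and Cdk1. Their WT means of 5.75, 7.25 and 12.1 lay under the lowest kept mean of 48.1. For such markers the filter itself fixed the sign of the difference. Of 22 macrophage markers 19 were kept, and 8 (42.1%) rose (median 1.08), beside 6.83% of all genes, with sums of 16078 to 21711 in PEPCK-TAg and 5456 to 9465 in WT. The 8 were Mpeg1, Cd14, Laptm5, C1qb, Ctss, Cd5l, Clec4f and Fcgr1. That count was 4 without PEPCK-TAg replicate 2 or without WT replicate 1, and 12 without WT replicate 2. Cell division markers were brighter on PEPCK-TAg replicate 1 than on replicate 2 in 17 of 19 cases, the order that Mt1 and Mt2 took, as were hepatocyte markers in 14 of 18 and zinc and copper genes in 17 of 22. Macrophage markers were so in 1 of 19, and all genes in 49.8%. Between the WT arrays, replicate 1 was the brighter for 15 of 19 cell division and 13 of 18 hepatocyte markers. There it was so for 12 of 22 zinc and copper genes, 2 of 19 macrophage markers and 52.2% of all genes. By these counts the order of the cell division, hepatocyte and macrophage markers was present in both groups, and markers read on the same arrays are not independent cases. For cell division markers the WT count includes signals near the bottom of the scale, whose order says little. WT replicates 1 and 2 gave 6.1 and 5.4 for Top2a, but 5.8 and 8.7 for Mki67 and 10.6 and 13.6 for Cdk1.

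Of 18 hepatocyte markers, all kept, 0 rose and 2 (11.1%) fell (median -0.36), beside 6.83% and 3.01% of all genes, with sums of 111314 to 120897 in PEPCK-TAg and 141925 to 161613 in WT. The apolipoprotein gene Apoa2 was at -0.74 ± 0.12 (SE, limma adjusted p = 0.0166) and the retinol-binding protein gene Rbp4 at -0.64 ± 0.13 (0.0278). The Apoa2 probe set carries the suffix of a sequence family, and the gene's other probe set differed by -0.14. Apoa2 was not called without PEPCK-TAg replicate 1 (0.0778), PEPCK-TAg replicate 2 (0.0669) or WT replicate 1 (0.0552), and Rbp4 was not called without any 1 of the arrays (0.0504 to 0.159). Of 13 stellate cell markers 10 were kept and 1 (10%, beside 6.83% of all genes), the collagen gene Col3a1, rose (1.44 ± 0.29, limma adjusted p = 0.0284), a call lost without PEPCK-TAg replicate 2 (0.0594), WT replicate 1 (0.0960) or WT replicate 2 (0.0679). Another kept probe set of Col3a1 was not called (0.50, limma adjusted p = 0.392), and a further one, too dim to be kept, differed by 0.60. In both of these the groups overlapped. Stellate sums were 4295 to 5859 in PEPCK-TAg and 4246 to 4537 in WT. Of 7 bile duct markers only 1 was bright enough to be kept, and it was not called, with sums of 161 to 173 in PEPCK-TAg and 157 to 202 in WT. No marker of any of these lists was at 0 on all arrays.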

How the data were processed

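The data are MAS5 signal intensities which the authors deposited as a table of linear values, with 1 value for each probe set on each array. MAS5 is named in the submitters' processing notes. The sources used here give neither its version nor a scaling target nor detection calls. Groups and replicate numbers came from the sample titles. The instrument records deposited with the arrays hold no expression values; they give 1 chip lot, 1 fluidics station, 4 fluidics modules and 4 scan times for 4 arrays, so no batch short of all arrays held more than 1.

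Of 12488 probe sets, 66 controls were left out. The platform annotation gave 1 symbol to 10833 probe sets, several to 396 and none used here to 1193, and 10817 of the named ones matched RefSeq's gene table of GRCm38.p6, which with RefSeq's promoter table supplied names, gene order and sequences. Signals were scaled alike (trimmed means from 250.16 to 250.18) and were not normalized further. The fit used log2(signal + 13), the 40th percentile of the mean as filter (7453 probe sets, 5650 genes, each gene read by its kept probe set of highest mean), and limma 3.58.1 in R 4.3.3 (lmFit, eBayes with trend, 2 residual and 4.61 prior degrees of freedom, two-sided, Benjamini-Hochberg adjustment, threshold 0.05). The fit was tested on simulated data. The number of arrays limits the precision.

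The members and the gene lists were chosen with earlier results of these data known. Genes were named by a rule: the metallothioneins, Mtf1, Slc30a1, Slc39a10 and Slc39a14, in the lists of metal handling and of the 4 kinds of inducer the members past the threshold plus the 3 others of smallest p, the nearest chromosome neighbours, the 10 closest profiles, the genes next to Mt1 and Mt2 in order of change, Pck1 and Alb. Hp, Orm1, Orm2, Saa2, Saa4, the further secreted acute phase genes and Nqo1 were added after values were seen. So were the named members of the marker lists and of the genes rich in metal response elements, and the comparison at like WT level. Alternatives were other offsets, filters, normalizations, eBayes without trend, the mean over a gene's probe sets, a replicate block and leaving out each array.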

Additional observations from a re-analysis of the deposited data

How the results depend on the processing

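The differences of Mt1 and Mt2 were positive under every alternative tried that kept them. Mt1 was at 4.28 with an offset of 1 and 2.32 with an offset of 50, and was not kept at the 60th percentile. Without each array in turn Mt1 ranged from 3.02 to 3.81 and Mt2 from 2.59 to 3.48. Over 51 named genes and 646 alternative values, 539 kept direction and call, 78 lost the call, 25 gained one and 4 turned sign: Mt3 (0.03, against -0.048 with quantile normalization, -0.12 with median centring and -0.10 to 0.15 without an array) and Alb (0.11 with cyclic loess, against -0.27). Probe sets called lower numbered 105 with no filter, 409 with median centring and 117 without trend; without an array the counts were 294 to 401 higher and 94 to 147 lower. Members called lower with no filter were 1 glucocorticoid, 1 NRF2, 0 hypoxia, 0 hepatocyte and 1 metal-response-element gene, and called higher 0 NRF2, 3 macrophage and 0 stellate genes. Median centring gave 1 zinc, 2 interleukin-6 and 5 hepatocyte genes lower. Without trend, 0 NRF2 and 4 macrophage genes were higher and 1 NRF2, 0 hepatocyte and 1 metal-response-element gene lower. Quantile normalization gave 1 NRF2 gene higher and 0 hepatocyte genes lower, cyclic loess 1 NRF2 and 1 hepatocyte gene lower, the 60th percentile 0 hypoxia and 4 hepatocyte genes lower, and the mean of a gene's probe sets 1 hepatocyte gene lower and 0 stellate genes higher. Of the chromosome neighbours, 0 were higher under each of these settings and with an offset of 1. Leaving out each array gave 0 to 1 glucocorticoid, 4 to 7 interleukin-6, 0 to 3 NRF2, 4 to 12 macrophage, 0 to 1 stellate and 0 to 1 neighbouring genes higher, and 1 to 3 glucocorticoid, 0 to 1 interleukin-6, 0 to 2 NRF2, 0 to 1 hypoxia, 0 to 3 hepatocyte and 1 to 2 metal-response-element genes lower.

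Replicates of both groups share the numbers 1 and 2, but nothing says that a number marks a shared animal or day, and with 2 pairs the correlation of their deviations, 0.18, does not settle a pairing. With the replicate block, 696 probe sets were higher and 444 lower. Members higher were then 2 glucocorticoid, 8 interleukin-6, 6 NRF2, 14 macrophage and 14 metal-response-element genes. Members lower were 1 zinc, 6 glucocorticoid, 4 interleukin-6, 5 NRF2, 2 hypoxia, 9 hepatocyte and 5 metal-response-element genes. Signals near the bottom of the scale, such as those of Mt1 in WT, limit how far a ratio can be read. The causes of these shifts were not tested.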
